A study of Mus musculus with 4 samples.

Results

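PHF2 peaks at the starts of long noncoding RNA (lncRNA) genes were described here. A PHF2 peak was taken when it overlapped, by at least 1 bp, a window of 500 bp before and after any transcript start of a lncRNA gene in the GENCODE M21 annotation of mm10. The gene types counted as lncRNA were lincRNA, antisense, processed_transcript, bidirectional_promoter_lncRNA and sense_overlapping. Of 5992 PHF2 peaks, 889 met this rule. They were split into 100 lncRNA-only peaks, which overlapped no such window of a protein-coding gene, and 789 shared peaks, which overlapped a coding window as well. Another 4943 peaks lay at coding starts only and 160 at neither kind of start.

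The study had used chromatin immunoprecipitation with sequencing on neural stem cells of wild-type C57BL/6J mouse embryos at E12.5, cultured in medium that held EGF at 20 ng/ml and FGF at 10 ng/ml. Its 4 samples were a PHF2 precipitation, an H3K9me2 precipitation and an input for each, and every group held 1 sample, so no test between conditions was possible. All 4 groups shared the strain, genotype and culture. The values were the positions, lengths and deposited scores of called peaks, whose depth is unknown. The promoters of all 8 neural stem cell genes looked at (Nes, Sox2, Pax6, Vim, Hes1, Fabp7, Slc1a3 and Sox9) had a PHF2 peak, with scores from 709.6 to 2022, and 1 of 9 promoters of other cell types did (Olig1, 1609). Over all 21755 protein-coding genes, 29.1% had a peak within 500 bp of a start. Peaks give no expression level, so these promoters describe the peak list and do not measure the cell type.

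PHF2 belongs to the JmjC family of demethylases. Its PHD finger reads H3K4me3, which is found at active promoters, and its described substrate is H3K9me2, histone H3 with 2 methyl groups on lysine 9. A lncRNA gene is transcribed without encoding a known protein. Many lncRNAs start beside a coding gene and run away from it on the opposite strand (divergent), while others have a promoter far from any coding start. Some lncRNAs act as RNAs in the nucleus, and others are hosts, whose transcripts carry small nucleolar RNAs (snoRNAs), which guide the modification of ribosomal RNA, or microRNAs (miRNAs), which repress messenger RNAs.

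The start sequences of the highest-scoring lncRNA-only peaks are shown to let the lncRNA promoters be compared with those between divergent genes and with CpG-rich lncRNA starts that had no peak. Each runs 5′ to 3′ along the lncRNA, from 250 bases before the start nearest to the peak centre through the first 50 bases transcribed. Capitals mark CpG dinucleotides.
Malat1 (mm10, chr19:5802622-5802921, minus strand): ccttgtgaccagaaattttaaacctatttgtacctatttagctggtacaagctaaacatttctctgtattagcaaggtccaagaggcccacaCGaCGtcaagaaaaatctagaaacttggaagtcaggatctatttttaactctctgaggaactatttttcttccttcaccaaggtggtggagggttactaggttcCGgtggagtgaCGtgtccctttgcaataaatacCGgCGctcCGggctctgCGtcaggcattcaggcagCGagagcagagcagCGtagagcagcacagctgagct
Gm3764 (mm10, chr3:88214245-88214544, plus strand): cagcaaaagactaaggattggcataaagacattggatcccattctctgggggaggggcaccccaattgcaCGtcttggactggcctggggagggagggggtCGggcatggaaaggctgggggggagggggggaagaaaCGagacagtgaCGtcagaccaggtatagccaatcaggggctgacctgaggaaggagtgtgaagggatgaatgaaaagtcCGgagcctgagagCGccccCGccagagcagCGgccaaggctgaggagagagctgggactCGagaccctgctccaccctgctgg
C130071C03Rik (mm10, chr13:83732316-83732615, plus strand): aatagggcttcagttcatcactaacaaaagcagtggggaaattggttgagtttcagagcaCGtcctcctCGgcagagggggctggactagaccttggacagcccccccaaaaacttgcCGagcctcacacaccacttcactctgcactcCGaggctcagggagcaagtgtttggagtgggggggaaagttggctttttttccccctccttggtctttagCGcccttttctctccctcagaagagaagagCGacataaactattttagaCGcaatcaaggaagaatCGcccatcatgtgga
Snhg5 (mm10, chr9:88522823-88523122, minus strand): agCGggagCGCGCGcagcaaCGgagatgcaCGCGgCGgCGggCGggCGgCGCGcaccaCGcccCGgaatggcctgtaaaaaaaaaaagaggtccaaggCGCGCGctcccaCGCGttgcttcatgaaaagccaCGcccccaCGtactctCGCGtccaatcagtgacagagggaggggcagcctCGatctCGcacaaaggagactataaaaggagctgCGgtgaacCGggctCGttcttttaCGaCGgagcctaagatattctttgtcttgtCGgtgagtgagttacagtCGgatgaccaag
Snhg5 was added after its score was seen, as the Snhg gene with the highest-scoring lncRNA-only peak. The 300 bases held 10 CpG dinucleotides at Malat1, 9 at Gm3764, 8 at C130071C03Rik and 33 at Snhg5. Among 8 motifs sought on both strands, Gm3764 held TGACGTCA at base 147, Snhg5 held TATAAA at base 203 and GGGCGG at bases 40 and 44, and Malat1 held none of the 8. CCAAT was found on either strand at bases 17, 31, 62 and 167 of Gm3764, at base 41 of C130071C03Rik and at base 154 of Snhg5. A match is a match of letters and shows no binding.

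The next stretches lie between the lncRNA start and the coding start of divergent pairs that share a high-scoring peak, printed along the coding strand. Pairs whose stretch overlapped an annotated untranslated region were passed over.
Gm28592 and Phlda1 (mm10, chr10:111507663-111507695, plus strand): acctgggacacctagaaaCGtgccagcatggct
2610035F20Rik and Zic2 (mm10, chr14:122475200-122475434, plus strand): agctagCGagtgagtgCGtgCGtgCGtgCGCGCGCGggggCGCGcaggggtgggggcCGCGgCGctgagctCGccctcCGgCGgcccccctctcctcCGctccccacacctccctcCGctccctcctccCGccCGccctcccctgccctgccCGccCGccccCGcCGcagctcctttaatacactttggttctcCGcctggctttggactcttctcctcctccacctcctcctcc
BC006965 and Sox9 (mm10, chr11:112781977-112782223, plus strand): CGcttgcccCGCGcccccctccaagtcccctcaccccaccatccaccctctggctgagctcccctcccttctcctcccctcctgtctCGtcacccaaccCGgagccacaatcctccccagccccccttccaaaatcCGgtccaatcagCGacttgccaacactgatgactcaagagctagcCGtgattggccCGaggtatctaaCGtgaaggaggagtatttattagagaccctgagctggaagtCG
These 3 peaks had scores of 1932, 1881 and 1839. The starts lay 34 bp apart at Gm28592 and Phlda1, 236 bp apart at 2610035F20Rik and Zic2, and 248 bp apart at BC006965 and Sox9. The stretch beside Zic2, a zinc finger factor of neural development, held 25 CpG dinucleotides in 235 bases, and that beside Sox9, a factor of neural stem cells, held 11 in 247 bases.

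For contrast, 2 lncRNA starts without a PHF2 peak are shown. Among lncRNA genes without a peak and farther than 5 kb from any coding start, their 5′-most starts were the most CpG-rich.
AC125059.4 (mm10, chr19:5307367-5307666, minus strand): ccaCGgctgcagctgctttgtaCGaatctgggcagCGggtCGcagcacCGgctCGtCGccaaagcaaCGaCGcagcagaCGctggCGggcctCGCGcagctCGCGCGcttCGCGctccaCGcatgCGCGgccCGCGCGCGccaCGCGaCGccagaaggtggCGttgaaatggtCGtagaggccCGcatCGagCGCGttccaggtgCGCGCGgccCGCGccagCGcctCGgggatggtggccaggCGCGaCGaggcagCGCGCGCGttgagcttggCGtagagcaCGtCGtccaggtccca
6530409C15Rik (mm10, chr6:28215305-28215604, plus strand): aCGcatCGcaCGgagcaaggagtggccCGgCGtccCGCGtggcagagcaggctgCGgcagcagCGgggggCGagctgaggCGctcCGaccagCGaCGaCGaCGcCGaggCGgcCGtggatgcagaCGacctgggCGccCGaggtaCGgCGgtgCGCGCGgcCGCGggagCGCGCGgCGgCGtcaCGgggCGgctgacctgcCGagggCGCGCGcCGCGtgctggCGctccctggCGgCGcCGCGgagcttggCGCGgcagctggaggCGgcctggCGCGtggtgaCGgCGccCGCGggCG
AC125059.4 held 51 and 6530409C15Rik 57 CpG dinucleotides in 300 bases, more than any of the 4 starts with a peak printed above. These 2 were chosen by CpG content and the 4 by score, so no conclusion is drawn from the difference. The printed starts of Gm3764 and C130071C03Rik also lie downstream of the 5′-most starts of these genes.

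PHF2 peaks were found at 884 of 9271 lncRNA genes, 9.54% (95% Wilson interval 8.95% to 10.1%, counting error only, as for all intervals here). Counted in the same way, 29.1% of 21755 protein-coding genes and 14.2% of all 53843 annotated genes had a peak. Of the 13822 lncRNA starts, 1526 had a peak. The share differed between the annotated types. It was 56.8% for bidirectional_promoter_lncRNA genes (108 of 190, 49.7% to 63.7%), which the annotation names for starting beside a coding promoter. It was 23.2% for processed_transcript genes (183 of 788), 12.8% for antisense genes (379 of 2958) and 4.02% for lincRNA genes (213 of 5305), and 1 of 30 sense_overlapping genes, Sox1ot, had a peak. The lncRNA-only peaks lay at 54 lincRNA, 38 processed_transcript and 6 antisense genes and at Sox1ot, 99 genes in all.

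A lncRNA gene had a PHF2 peak mostly where a coding gene started nearby. With a coding start within 1 kb, 764 of 2008 lncRNA genes had a peak (38.0%, 35.9% to 40.2%). Without one, 120 of 7263 did (1.65%, 1.38% to 1.97%). The share was 41.4% for divergent starts (487 of 1175), 34.0% for starts on the opposite strand downstream of the coding start (251 of 738) and 27.4% for starts on the same strand (26 of 95, 19.4% to 37.1%). It was 3.53% where the nearest coding start lay at 1 to 5 kb, 1.89% at 5 to 50 kb and 0.850% beyond 50 kb. Among the lncRNA genes without a peak, 137 had a coding start within 1 kb whose gene had one.

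Coding genes with a divergent lncRNA had PHF2 peaks in 569 of 1203 cases (47.3%, 44.5% to 50.1%), against 27.6% (27.0% to 28.2%) of the 19793 coding genes with no lncRNA start within 1 kb. Their promoters were also richer in CpG, with a median observed/expected ratio at the 5′-most start of 0.722 against 0.532. This ratio is the number of CpG dinucleotides over that expected from the C and G content, here over 500 bp on either side of a start. The genes were also compared within classes of CpG content. Between 0.2 and 0.4, 5.52% (8 of 145, 2.82% to 10.5%) of coding genes with a divergent lncRNA and 2.18% (1.74% to 2.72%) of those with no lncRNA had a peak at the 5′-most start, and these intervals did not overlap. Between 0.4 and 0.6 the shares were 18.1% (12.8% to 25.1%) and 13.4% (12.1% to 14.7%). Between 0.6 and 0.8, 45.8% (41.0% to 50.8%) of coding genes with a divergent lncRNA and 40.5% (39.1% to 41.8%) of those with no lncRNA had a peak at that start, and at 0.8 or more these were 72.8% (68.3% to 76.8%) and 66.9% (65.4% to 68.4%). The intervals overlapped in the classes from 0.4 on, and under 0.2 the counts were 0 of 99 and 12 of 4758.

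**Figure D1:**
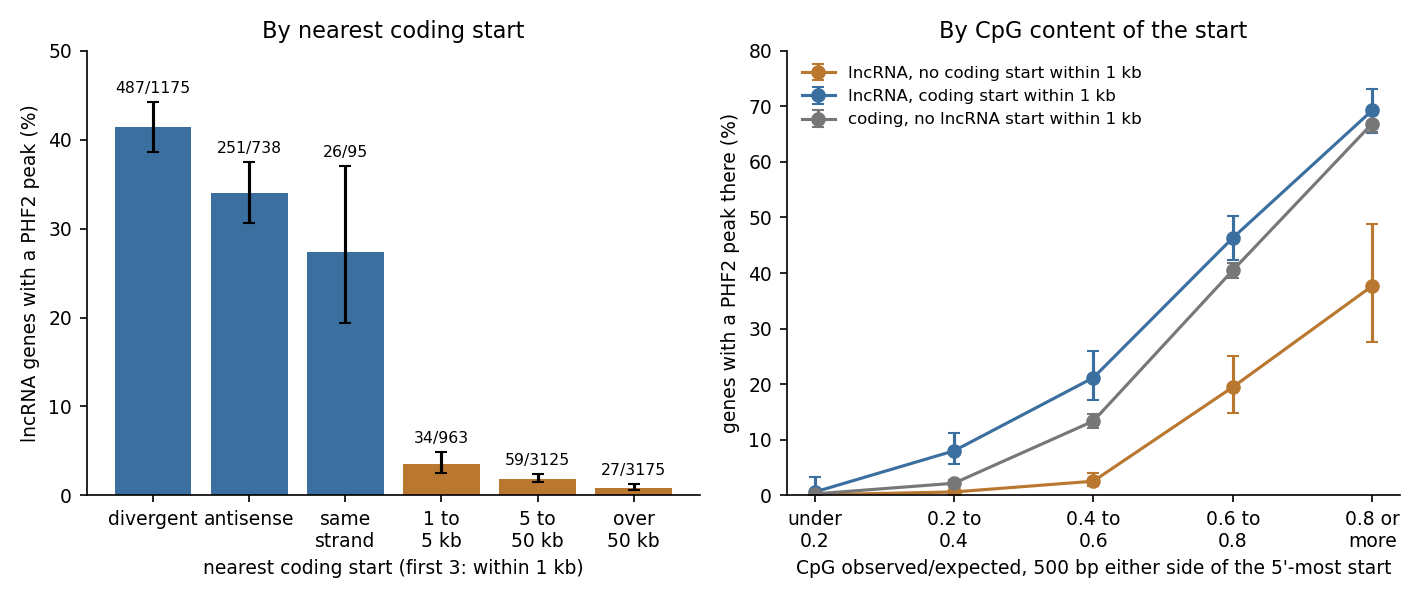
Share of genes with a PHF2 peak (%), with 95% Wilson intervals as error bars. On the left, lncRNA genes are grouped by the nearest coding start, with genes with a peak over all genes above each bar, and the share goes from 41.4% for divergent starts to 0.850% beyond 50 kb. On the right, lncRNA genes with (blue) and without (orange) a coding start within 1 kb and coding genes without a lncRNA start within 1 kb (grey) are grouped by CpG observed/expected at their 5′-most start, and in the class of 0.8 or more the points lie at 69.3%, 37.7% and 66.9%.

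CpG content separated lncRNA starts with a peak from those without. The median CpG observed/expected was 0.772 (0.761 to 0.779) at the 1526 starts with a peak and 0.244 (0.242 to 0.248) at the 12296 without. It was 0.691 (0.663 to 0.724) at the 259 starts with a lncRNA-only peak and 0.227 at the starts that had neither a peak nor a coding start within 1 kb. Coding starts with a peak had a median of 0.803. These intervals take each start as independent, although starts of the same gene can lie close together and share sequence. With only the 5′-most start of each lncRNA gene, the medians were 0.785 with and 0.238 without a peak, outside the intervals given. Within a class of CpG content the groups still differed. In the class from 0.6 to 0.8, 19.5% (14.8% to 25.1%) of lncRNA genes without a coding start within 1 kb had a peak at the 5′-most start, against 46.3% (42.4% to 50.3%) of those with one and 40.5% of coding genes with no lncRNA start near. At 0.8 or more the shares were 37.7% (29 of 77, 27.7% to 48.8%), 69.3% (65.2% to 73.0%) and 66.9%. Whether these starts differ in their transcription was not tested.

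A small set of lncRNA-only peaks lay at CpG-poor starts. Of the 100, 71 had a CpG observed/expected of 0.6 or more at the start, against 87.5% of the 789 shared peaks, and 12 were under 0.4. By the start nearest to the peak centre, the lowest values were at Pvt1 (0.143, score 523.3), a lncRNA neighbour of Myc on chromosome 15, at Celrr (0.176, score 119.1) on chromosome 1, and at the lower-scoring of the peaks of 3110039I08Rik (0.236, score 589.1) on chromosome 9. Pvt1 and 3110039I08Rik were both above the median score of the lncRNA-only peaks, 232.5.

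The lncRNA-only peaks were spread over the range of scores. The score ranks peaks within this list only, and its scale is unknown here. Its median was 232.5 (195.9 to 312.0) for lncRNA-only, 255.5 (243.2 to 274.8) for shared and 227.8 (223.7 to 231.9) for coding-only peaks, and 166.6 (150.9 to 187.8) for peaks at neither kind of start. Of the lncRNA-only peaks, 18 (11.7% to 26.7%) were among the highest-scoring 10% of all peaks, as were 13.8% of the shared and 9.37% of the coding-only peaks. Their median length was 1304 bp (1222 to 1537 bp), against 1400 bp (1348 to 1449 bp) for shared and 1300 bp for coding-only peaks. The intervals of lncRNA-only and shared peaks overlapped for both measures. The centre of a lncRNA-only peak had a median distance of 29592 bp to the nearest coding start (1145 to 394237 bp), with 4 within 2 kb and 16 beyond 100 kb.

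The highest-scoring lncRNA-only peak was at Malat1, which encodes an abundant nuclear RNA. Its score of 3100 was shared by 4 peaks, so their order was not resolved. The peak had 6347 bp (chromosome 19, 5797015 to 5803361) and lay from 690 bp before the start to 5656 bp into the gene, the longest of the 100. Gm3764, the host of the miR-9 gene Mir9-1, followed with 2216 (chromosome 3, 88214108 to 88217623), and C130071C03Rik, the host of Mir9-2, with 1519 (chromosome 13, 83730441 to 83734603). Gm4258, the host of Mir181a-1 and Mir181b-1, had 1460 (chromosome 1, 137898011 to 137901474). Zswim6 had 1118, and 1810026B05Rik, for which RefSeq gives the symbol Chaserr, had 1074 (chromosome 7, 73556594 to 73559695). The next were 2810410L24Rik (1015), the let-7 and miR-100 host 3110039I08Rik (935.1, Mir100hg in RefSeq), the snoRNA host 2410006H16Rik (914.3) and the snoRNA host Snhg5 (736.1). Hosts of the small RNAs named here held 6 of these 10 peaks, and Zswim6 also holds an annotated miRNA gene, Gm22118. Over all 99 genes with a lncRNA-only peak, 16 held a miRNA, 15 a snoRNA and 69 neither. Among all 9271 lncRNA genes, 115 held a miRNA, 70 a snoRNA and 9093 neither.

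The annotation decides part of this set. RefSeq, on the same assembly, placed a messenger RNA start within 500 bp of 12 of the 100 lncRNA-only peaks and called 11 of the symbols protein-coding, so 87 had neither. Zswim6 is one of these genes, with 2 of the 13 peaks, and others are Trerf1, Ptpmt1 and Spata5l1. Without the 13, the median score was 255.9 and the median length 1307 bp. When each gene was given its 5′-most start only, coding genes too, 158 peaks counted as lncRNA-only in place of 100.

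The peaks sat on the starts. Of the 100 lncRNA-only peaks, 84 covered the lncRNA start, and 75 had their centre within 500 bp of it. The centre lay at a median of 120 bp (20 to 187 bp) downstream of the start, and 67 of 100 centres (57.3% to 75.4%) were downstream. The centres of coding-only peaks lay at a median of 127 bp (120 to 133 bp) downstream of the coding start, with 76.1% (74.9% to 77.3%) downstream. Both intervals of lncRNA-only peaks overlapped these, for the share by little. The rule itself keeps peaks near a start, but it does not set the side. The starts nearest to the limit of the rule were Gm15927 (486 bp from its peak, score 158.8) and 1110020A21Rik (477 bp, 359.3) inside it, and 9130024F11Rik (504 bp, 710.5) and 9930014A18Rik (509 bp, 693.9) outside it.

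**Figure D2:**
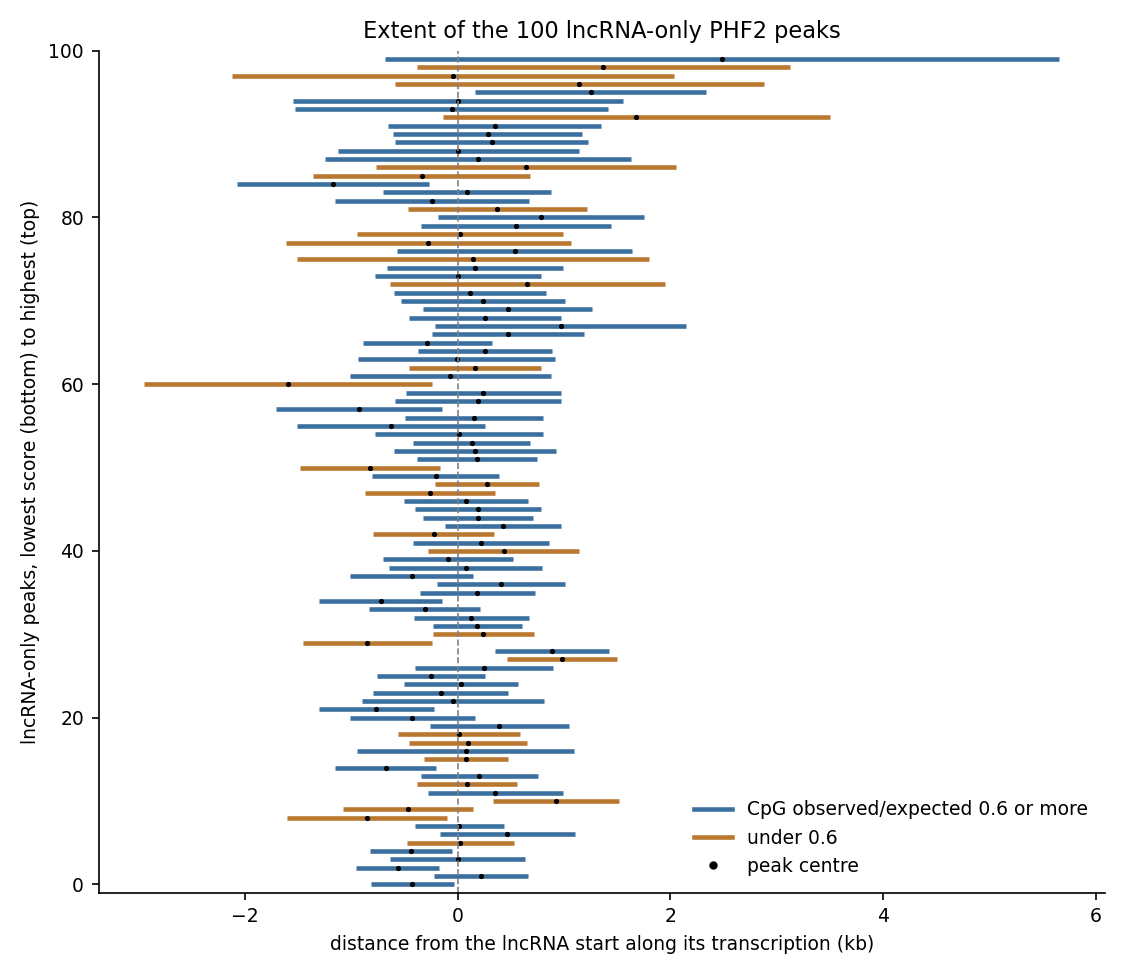
Extent of each lncRNA-only PHF2 peak (horizontal lines, n = 100) in kb from the lncRNA start, along the direction of transcription, ordered by score from the lowest at the bottom to the highest, Malat1, at the top. Dots mark peak centres, blue lines are starts with a CpG observed/expected of 0.6 or more (71 peaks) and orange lines those under 0.6. Of the 100 lines, 84 cross the start, and the longest reaches 5656 bp into Malat1.

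At divergent pairs, the centre of the shared peak was mostly nearer to an annotated coding start than to a lncRNA start. For 479 of the 789 shared peaks the lncRNA and the coding gene were divergent, with their starts a median of 230 bp apart (212 to 249 bp). The peak centre was nearer to the coding start in 407 of the 479 (85.0%, 81.5% to 87.9%). Each distance was taken to the nearest annotated start of its kind at the peak, and coding genes have more starts. The 21755 coding genes had 21973 starts with a peak and 71223 without, and the 9271 lncRNA genes 1526 and 12296. How far this favours the coding start was not tested, here or at the pairs below. The median position of the centre was 49 bp (20 to 84 bp) downstream of the coding start, and 60.3% of centres lay downstream of it. Measured from the lncRNA start, 44 of 479 centres (9.19%, 6.91% to 12.1%) lay downstream, and the median was -323 bp, on the upstream side. A further 142 (29.6%) lay between the starts. At the 289 pairs with the lncRNA start on the opposite strand inside the coding gene, the centre lay downstream of the coding start in 78.9% and downstream of the lncRNA start in 81.0%, since these transcripts face each other. It was nearer to the coding start in 161 of the 289 (55.7%, 49.9% to 61.3%). The other 21 pairs were on the same strand.

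**Figure D3:**
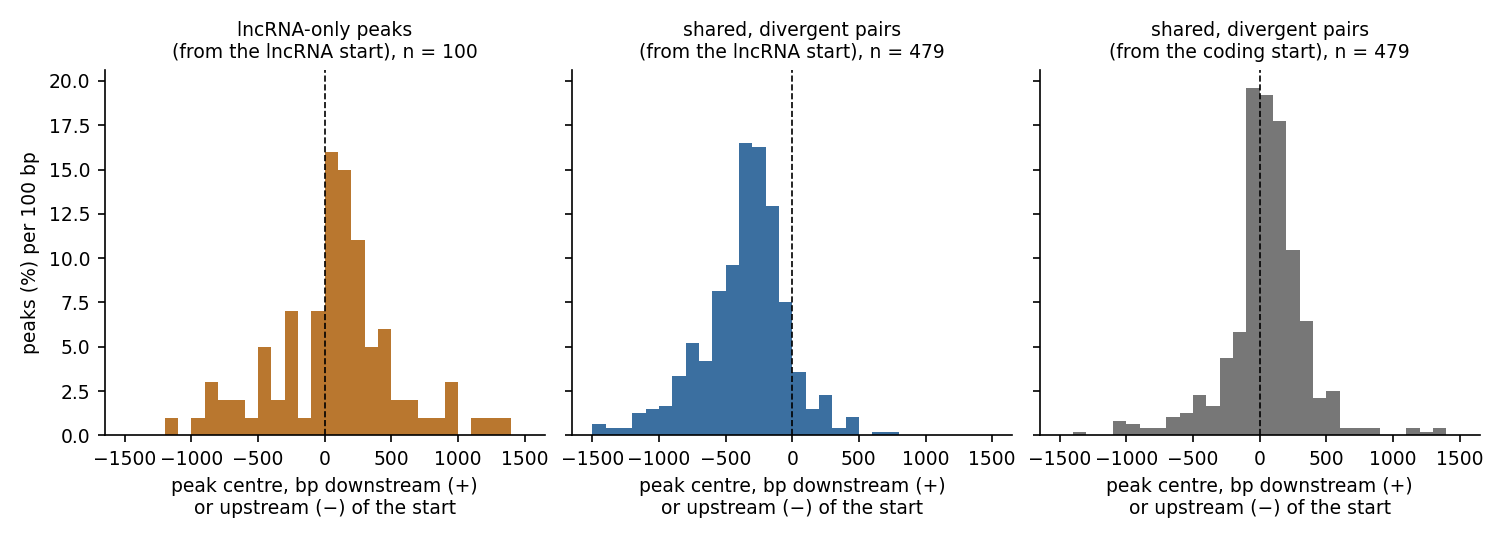
Share of peaks (%) per 100 bp by the position of the peak centre, in bp downstream (positive) or upstream (negative) of a start, for lncRNA-only peaks from the lncRNA start (n = 100) and for shared peaks at divergent pairs (n = 479) from the lncRNA start and from the coding start. The medians are 120, -323 and 49 bp. Beyond 1500 bp lie 3, 6 and 3 centres, which are not drawn.

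Among the shared peaks, scores of 3100 belonged to the peak of Gm48089 and Dusp6, a phosphatase of ERK (chromosome 10, 99262730 to 99268186), and to that of AC133601.1 and Spry4, an antagonist of receptor tyrosine kinases (chromosome 18, 38596058 to 38602128). The start of Gm48089 lay 2255 bp from that of Dusp6, with a CpG observed/expected of 0.173, and the peak centre was 183 bp upstream of the Dusp6 start and 2438 bp upstream of the lncRNA start. The others were 5930403N24Rik and Marcks (2834), Gm43573 and Adgrl2 (2665), Zmiz1os1 and Zmiz1 (2476), Gm5432 and Trib2 (2413), Gm11772 and Bahcc1 (2356), and Gm7854 and Cpeb2 (2349). Gm4675 shared a peak of 2271 with Sox21, a repressor of the Sox family, and Gm2164 one of 2177 with Pou3f1, a POU factor of neural progenitors. Of these 10 pairs, the centre was nearer to the lncRNA start at Gm43573, Gm11772, Gm4675 and Gm2164. A shared peak cannot be assigned to either gene from its position alone.

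Several lncRNA genes held more than 1 peak. Of the 884, 860 had 1, 22 had 2 and 2 had more. A830082K12Rik, which starts opposite Nr2f1, a nuclear receptor of cortical patterning, had 4, of which 2 were lncRNA-only (140.0 and 364.4) and 2 shared (256.5 and 368.5). C130071C03Rik had 3, with scores of 525.8, 1519 and 469.9 from its 5′-most start on. Conversely, 22 peaks lay at the starts of 2 or more lncRNA genes. Of the 370 lncRNA genes with several starts and a peak, 348 (94.1%) had a peak at the 5′-most start and 228 (61.6%) at every start.

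Hosts of snoRNAs were the list with the highest share of peaks. Of 17 genes matched by symbol (the Snhg genes, Gas5, Zfas1, Dancr and Epb41l4aos), 15 had a PHF2 peak, 9 of them a lncRNA-only one. The highest scores were at Gas5 (1138), Zfas1 (825.1), Snhg5 (736.1), Snhg8 (709.2), Snhg9 (648.0) and Snhg6 (640.9). Gas5, Zfas1 and Snhg9 shared their peak with the coding genes Zbtb37, Znfx1 and Rps2. Snhg14, an imprinted transcript expressed in neurons, and Snhg18 had none. The list was set with results of these data known, so the hosts were also found by position, as lncRNA genes with a snoRNA of the annotation inside them on the same strand, a count added after the data were seen. By position, 27 of 70 hosts had a peak (38.6%, 28.0% to 50.3%), against 835 of 9093 lncRNA genes without a snoRNA or miRNA (9.18%). Among genes without a coding start within 1 kb and with a CpG observed/expected of 0.6 or more, it was 14 of 18 (77.8%, 54.8% to 91.0%) for snoRNA hosts and 51 of 265 (19.2%, 15.0% to 24.4%) for the others. The intervals did not overlap.

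Hosts of miRNAs had some of the highest scores. Of 12 matched by symbol, 3 had a peak (25%, 8.89% to 53.2%), against 9.54% of all lncRNA genes. They were Dleu2 (682.5), Mir99ahg (445.1) and Mir155hg (214.7), while Dnm3os, Mir124-2hg, Mir124a-1hg and Mir133a-1hg were among those without. Many hosts carry no such symbol. By position, 25 of 115 had a peak (21.7%, 15.2% to 30.1%), and of those without a coding start within 1 kb and with a CpG observed/expected of 0.6 or more, 8 of 21 (38.1%, 20.8% to 59.1%). This interval overlapped that of the genes that host no small RNA.

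The hosts with lncRNA-only peaks held miRNAs of many families, and those of 7 well-known families were chosen to be shown, after the hosts had been seen. Others, among them Mir155, Mir101a, Mir30d and Mir3093, are not shown. The RefSeq mature sequences (GRCm38.p6) are given 5′ to 3′, with the seed (bases 2 to 8), by which a miRNA recognises its targets, in capitals.
miR-9-5p: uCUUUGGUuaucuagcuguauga
miR-181a-5p: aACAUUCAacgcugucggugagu
let-7a-5p: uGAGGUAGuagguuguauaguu
let-7c-5p: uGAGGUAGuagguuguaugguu
let-7f-5p: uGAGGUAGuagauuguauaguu
miR-100-5p: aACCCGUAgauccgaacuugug
miR-99a-5p: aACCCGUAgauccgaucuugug
miR-125b-5p: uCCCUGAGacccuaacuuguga
miR-15a-5p: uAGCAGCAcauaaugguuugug
miR-16-5p: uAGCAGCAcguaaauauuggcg
miR-29b-3p: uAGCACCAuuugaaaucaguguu
miR-29c-3p: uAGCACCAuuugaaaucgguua
The let-7 sequences shared the seed GAGGUAG, miR-100-5p and miR-99a-5p shared ACCCGUA, miR-15a-5p and miR-16-5p shared AGCAGCA, and miR-29b-3p and miR-29c-3p shared AGCACCA. The families below were looked at after the hosts had been seen.

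The let-7 miRNAs hold back proliferation and mark differentiating cells, and miR-9 is a miRNA of neural progenitors. Of 11 let-7 genes in the annotation, 7 lay inside a lncRNA, and all 7 of these lay in a lncRNA with a PHF2 peak. These lncRNAs were 3110039I08Rik (935.1), Mir99ahg (445.1), 6720427I07Rik (258.9) and Lncppara (227.5, synonym Mirlet7bhg in RefSeq). Mirlet7a-2 also lay in Gm49317, which had no peak. A peaked start lay upstream of the hairpin for 6 of the 7. Taking the farthest such start of each, the distance ran from 8228 bp (Mirlet7a-1) to 270477 bp (Mirlet7c-1). The exception was Mirlet7a-2, where both peaks of 3110039I08Rik lay at starts downstream of it, with the hairpin at -44025 and -42778 bp from them. The Mir100 hairpin in the same gene likewise lay upstream of these starts, at -49316 and -48069 bp. Mir125b-1, also in this gene, lay within the higher-scoring peak.

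Of the 3 miR-9 genes, Mir9-1 and Mir9-2 had hosts with a peak and Mir9-3 did not. The peak of 2216 at Gm3764 covered the Mir9-1 hairpin (chromosome 3, 88215598 to 88215686), which lay 1113 bp downstream of a start. The peak of 469.9 at C130071C03Rik covered the Mir9-2 hairpin (chromosome 13, 83738814 to 83738885), and a start of this gene lay at the hairpin itself. No lncRNA with a miR-124 gene (2 loci) and none with the miR-17 to miR-92 genes (6 loci, in Mir17hg) had a peak. The miR-124 family is known from neurons, and Mir17hg for its role in proliferation.

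**Figure D4:**
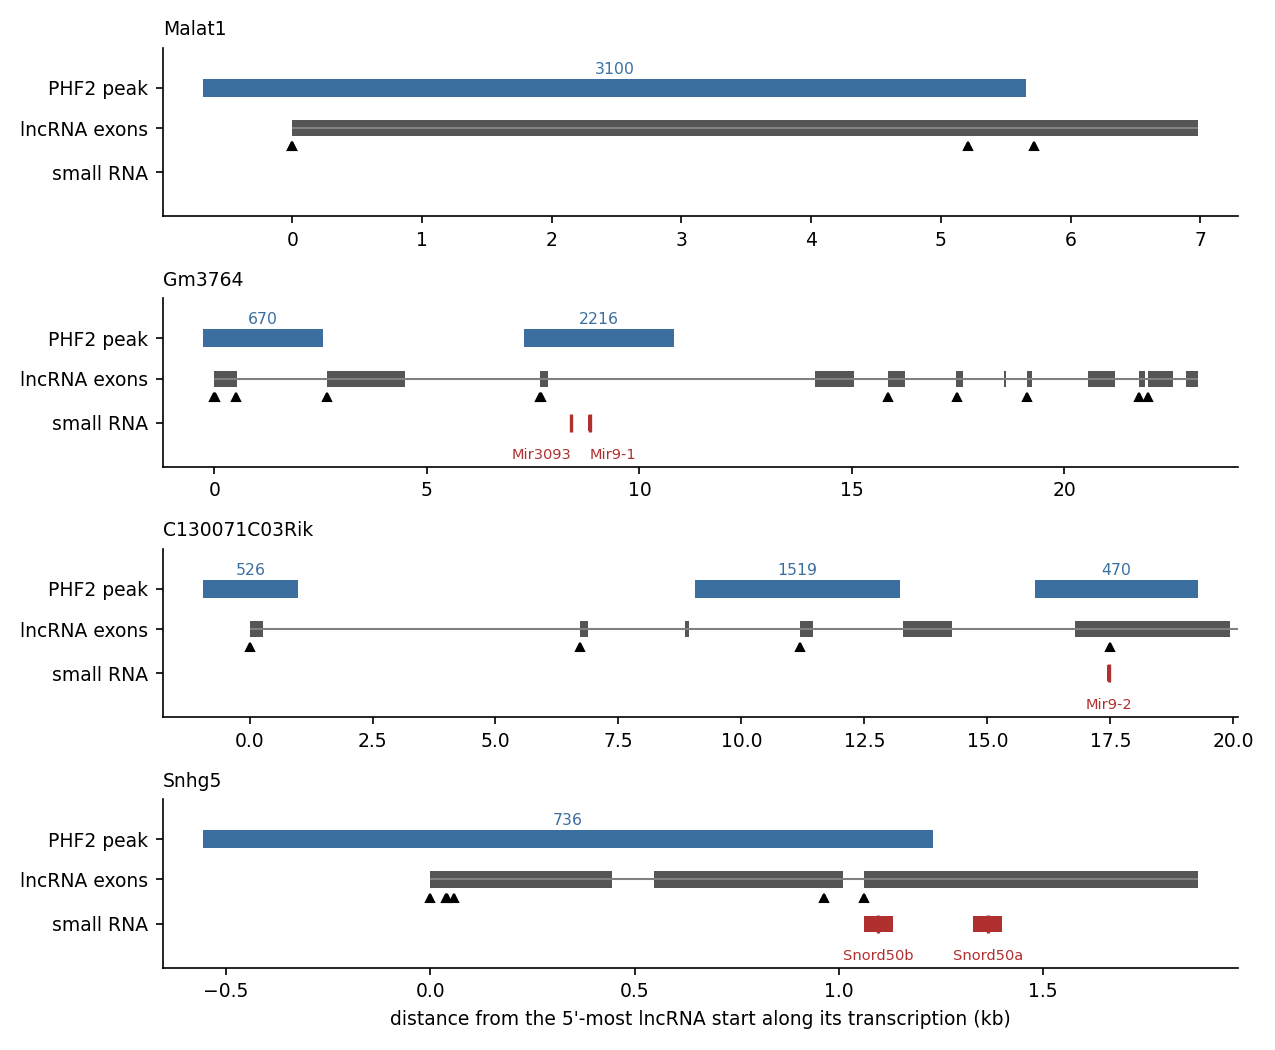
PHF2 peaks (blue, with their scores), lncRNA exons of all transcripts (grey), starts (triangles) and small RNAs of the annotation (red) at 4 lncRNA genes, in kb from the 5′-most start along transcription. Malat1 is covered from before its start to 5.66 kb into the gene. A peak covers Mir9-1 in Gm3764 and Mir9-2 in C130071C03Rik, whose gene runs on to the right of the panel, and Snhg5 has 1 peak over its start and Snord50b.

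**Figure D5:**
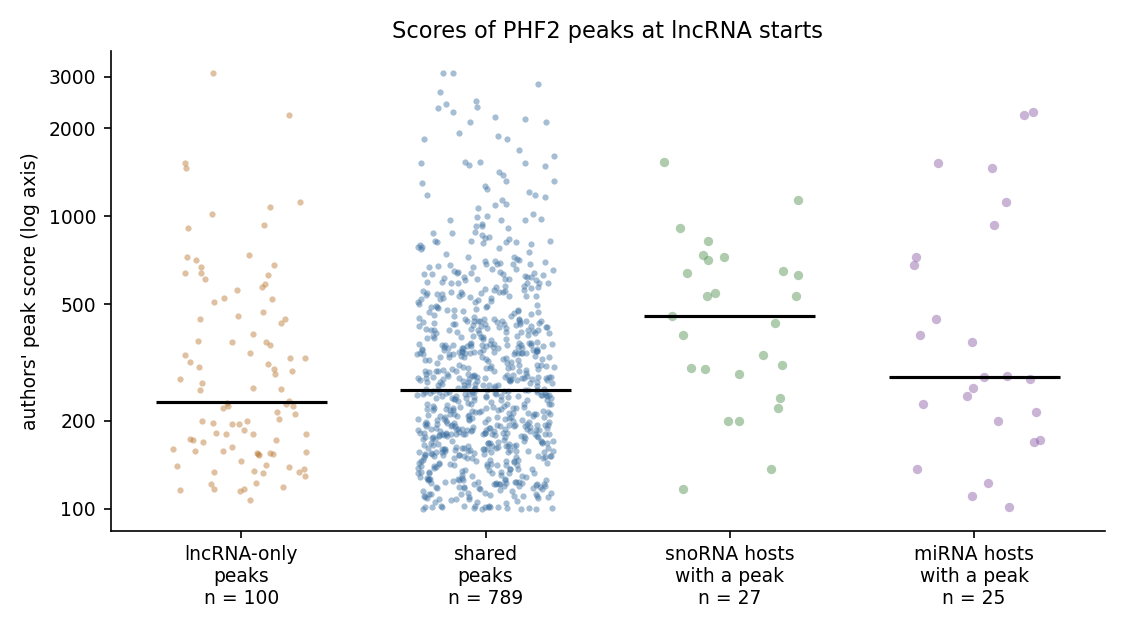
Deposited scores (log axis) of the lncRNA-only peaks (n = 100), the shared peaks (n = 789), and the highest peak of each host of a snoRNA (n = 27) or a miRNA (n = 25) found by position. Each point is a peak or a gene, and the bars are medians, 232.5, 255.5, 457.4 and 282.2. A gene with both kinds of small RNA stands in both host groups, and the hosts' peaks stand among the peaks at the left as well.

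Widely expressed lncRNAs had peaks at 8 of 10 genes (80%, 49% to 94.3%), against 9.54% of all lncRNA genes. The list shares Gas5, Zfas1, Dancr and Epb41l4aos with the snoRNA hosts. Of its genes, Malat1, Gas5, Zfas1, Epb41l4aos (630.6), Pvt1 (523.3) and Dancr (200.4) had the highest scores. Neat1, a lncRNA of nuclear paraspeckles that neighbours Malat1, and Trp53cor1 had none. Oip5os1 was found under the symbol 1700020I14Rik, with a lncRNA-only peak of 255.9, and Norad under 2900097C17Rik, without a peak. Both matches came from RefSeq synonyms after the lists were counted.

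Of 21 neural lncRNAs, 6 had a peak (28.6%, 13.8% to 50%), against 9.54% of all lncRNA genes, with Malat1 counted here too. Zeb2os (1183) and Emx2os (823.6) shared theirs with Zeb2 and Emx2, transcription factors of the developing brain. Pantr2 (612.1), Sox1ot (277.1) and Sox2ot (171.6) had lncRNA-only peaks near Pou3f3, Sox1 and Sox2. Dlx1as, Dlx6os1, Lhx1os and Meg3 were among the 15 without one, of which Lhx1os had a CpG observed/expected of 0.831 at its start. Gm30731, which RefSeq lists as Pnky, a lncRNA of neural stem cells, had a weak lncRNA-only peak (129.7), with its centre 1329 bp from a coding start, that of Pou3f2. It was named after its value was seen.

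The lists of X-inactivation, imprinted and Hox cluster lncRNAs held 1 gene with a peak each. Jpx (173.4) was the only one of 5 X-inactivation genes with a peak, and Firre, Ftx, Tsix and Xist had none. Kcnq1ot1 (199.1) was the only one of 8 imprinted lncRNAs, and Airn, H19, Meg3 and Mirg were among those without. Of 9 lncRNAs of the Hox clusters 1 had a peak, and Hotair, Hottip, Hoxa11os and Hoxaas2 were among those without. Each of these 3 shares has a wide interval, of 3.62% to 62.4%, 2.24% to 47.1% and 1.99% to 43.5%, which the overall share of 9.54% lies within. A list meant for lncRNAs named for a gene on the opposite strand was matched by symbol endings alone. These were os or as, with or without a number, and ot. The list therefore also took in genes such as Gas5, and Sox1ot and Sox2ot, which lie on the same strand as Sox1 and Sox2. Of its 297 genes, 57 had a peak (19.2%, 15.1% to 24.1%), 4 of them a lncRNA-only one, Sox1ot and Sox2ot included. No coding start lay within 1 kb for 161 of the 297, and 5 of these 161 had a peak. Over all lncRNA genes, the share was 38.0% with a coding start within 1 kb and 1.65% without. Zmiz1os1 (2476), Junos (2146), Arl4aos (1382), Sox6os (1319), Sp3os (1185) and Zeb2os (1183) led the 57, and Acss2os, Adap2os, Aknaos and Alkbh3os1 were among those without a peak.

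None of the 889 PHF2 peaks overlapped a called H3K9me2 region. A limit of 3 counts, used here in place of a Wilson interval, allows a share of up to 0.337%. Of the other peaks, 2 of 4943 coding-only peaks and 1 of 160 peaks at neither kind of start did. Over genes, 2 of 884 lncRNA genes with a PHF2 peak had an H3K9me2 region within 500 bp of any start (0.226%, 0.0621% to 0.821%), against 129 of 8387 without (1.54%, 1.30% to 1.82%) and 1.65% of coding genes. The 2 genes were Sox2ot and AW046200, and in neither did the peak and the region lie at the same start. The caller and threshold of the H3K9me2 list are unknown here, so a start without a called region is not shown to lack the mark. Starts without a peak were mostly CpG-poor, as given above, and the part of CpG content in this difference was not tested.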

How the data were processed

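Chromatin immunoprecipitation and sequencing had been done on 1 sample per group, and the 2 deposited peak lists were used. Per the file headers, the authors called the PHF2 peaks with MACS in Galaxy. The submitters' processing notes name Bowtie2 and mm10, while for versions, control, settings and the caller of the H3K9me2 list, the sources used here name nothing. The deposited score of a PHF2 peak (100.02 to 3226) has no stated scale and only ranked peaks within the list. The score column of the H3K9me2 list was not used for ranking. Depth is unknown, and the inputs were not analysed here. No interval covers variation between cultures.

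All coordinates are mm10, 1-based. Chromosomes 1 to 19 and X of GRCm38.p6, the same assembly, were used, with GENCODE M21 starts, and 0 peaks or regions ended past a chromosome. This kept 5992 PHF2 peaks and 36111 of 36171 H3K9me2 regions. A peak was at a start if it overlapped 500 bp on either side by 1 bp. A gene with several starts had a peak if any of them did. Shares by CpG class used the 5′-most start. Shares have 95% Wilson intervals and medians 95% order-statistic intervals. No test was made, since each group held 1 sample. Overlap and distance code was checked on simulated peaks. Python 3.11.15 was used with pandas 2.3.3, numpy 2.4.6, pysam 0.24.0, statsmodels 0.14.6 and matplotlib 3.10.9.

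The members and the 8 gene lists were chosen with earlier results of these data known. The text names genes of the 10 highest-scoring lncRNA-only and shared peaks, up to 6 genes with and 4 without a peak from each list, the 2 starts nearest to the limit on either side and the 3 lncRNA-only starts of lowest CpG content. One gene that this rule names is not reported here. Small RNA hosts, by position and strand, and other symbols, by RefSeq synonyms, were added after the data were seen. The 8 motifs, sought on both strands within 150 bp of a start, are spelled out with the observations. Each was counted once per start, whether or not matches of other motifs overlapped it. Alternatives were other windows, starts, gene types, definitions of overlap and the higher-scoring 50% of peaks.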

Additional observations from a re-analysis of the deposited data

How the results depend on the processing

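No paired analysis was possible because each group held 1 sample and no test between groups was made. In all, 44 alternatives were computed, 4 of them chosen after seeing the data, and 30 stayed within 1.5 times the count or the 95% interval of the share or median. With the higher-scoring 50% of peaks, 495 peaks lay at lncRNA starts and 51 were lncRNA-only, 5.36% of lncRNA genes had a peak, and 0.950% of those without a coding start within 1 kb did. With the 5′-most start alone, 158 peaks were lncRNA-only, the median CpG observed/expected was 0.785 with and 0.238 without a peak, and 41.1% of shared peak centres lay downstream of the lncRNA start, against 37.1% with all starts. With all long noncoding types, 8.20% of genes had a peak. With no coding start within 5000 bp, 1.37% did. With 250 bp on either side, the median CpG observed/expected was 0.801 with and 0.257 without a peak. With start windows of 1000 bp, 0.967% of lncRNA genes with and 2.75% of those without a PHF2 peak had an H3K9me2 region. Under each alternative run for them, starts with a peak kept the higher CpG content and the lower share with H3K9me2. The causes of these changes were not tested. Lists of peaks carry no depth, so starts with a weaker signal than the lowest score, 100.02, cannot be told from starts without PHF2.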

Other observations

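Of the 889 peaks at lncRNA starts, 100 were lncRNA-only. By chromosome, these were 12 of 58 on chromosome 11, 12 of 44 on chromosome 13, 0 of 35 on chromosome 10 and 1 of 7 on X, at Jpx. Whether this spread is uneven beyond counting error was not tested. On chromosome 13, C130071C03Rik held 3 and Zswim6 and A830082K12Rik 2 each. The X chromosome had the lowest share of lncRNA genes with a peak, 4.52%, and of coding genes, 7.17%.

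The lncRNA genes with a lncRNA-only peak more often had several annotated transcripts than those with shared peaks or none. Several transcripts were annotated for 65.7% of these 99 genes, 41.5% of the 785 with shared peaks only and 24.8% of the 8387 without a peak. A single exon was annotated for 9.09%, 16.4% and 5.12%. The number of starts per gene, a median of 2, 1 and 1, moved with these shares, and its part was not tested.

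Motifs were counted in 150 bp on either side of a start. For each peak only the lncRNA start nearest to its centre was used, while all starts without a peak were counted. GGGCGG, the core of the GC box, was found at 54.5% of 99 such starts of lncRNA-only peaks and 66.0% of 779 of shared peaks. It was found at 14.6% of all lncRNA starts without a peak and 58.0% of those that had a CpG observed/expected of 0.6 or more. It stood at 36.5% of all lncRNA and coding starts. The other motifs are given in the same order, for lncRNA-only peaks, shared peaks, no peak, and no peak with a CpG observed/expected of 0.6 or more. TATAAA was found at 13.1% (7.84% to 21.2%), 4.75% (3.47% to 6.48%), 13.2% and 4.77% of starts, and at 10.2% of all starts. CCGGAAG, a core of ETS factor sites, was found at 13.1%, 14.6%, 4.26% and 11.7%, and at 9.44% of all. The shares of CCAAT were 31.3%, 30.6%, 35.7% and 31.8% (33.0% of all), those of TGACGTCA 4.04%, 2.44%, 0.976% and 2.13% (1.70% of all), those of GCGCATGCG 1.01%, 3.34%, 0.496% and 2.04% (1.49% of all), and those of AAGATGGCG 1.01%, 2.57%, 0.635% and 1.28% (1.90% of all). CTCGCGAGA was at 0 of 99, 8 of 779, 7 of 12292 and 5 of 1175 starts and at 0.640% of all. These are matches of letters.

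The median distance from the peak centre to the nearest region was 24210 bp (20666 to 31685 bp) for lncRNA-only, 35602 bp (31596 to 39499 bp) for shared and 36139 bp (34911 to 37636 bp) for coding-only peaks. For the 160 peaks at neither kind of start it was 38308.5 bp (28236 to 45190 bp). The interval of lncRNA-only peaks overlapped that of these 160, and that of shared peaks by little. It did not overlap that of coding-only peaks.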
